A study of Mus musculus with 7 samples.

Results

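The Btg/Tob and Zfp36 genes encode adaptor proteins that bring the machinery of poly(A) tail shortening to mRNAs. The 8 members were taken by symbol, Btg1, Btg2, Btg3, Tob1 and Tob2 of the Btg/Tob family and Zfp36, Zfp36l1 and Zfp36l2 of the Zfp36 family, and all 8 were among the 23038 genes measured. The study used Smart-seq2, which copies whole mRNAs from few cells into cDNA, on haematopoietic stem cells (HSCs) from bone marrow of adult C57BL/6 mice, sorted as Lineage-, Sca1+, cKit+, CD150+ and CD48- cells. The 4 mutant libraries came from Mx1-cre; Mettl3fl/fl mice, which lose Mettl3, the catalytic subunit of the enzyme that places N6-methyladenosine (m6A) on mRNA. The 3 control libraries came from Cre-negative littermates, and the sources used here do not say whether these carried the floxed allele. Each library held 150 cells. Every mouse, control or mutant, had been injected with pIpC (10 µg, 5 doses), a synthetic double-stranded RNA that switches on the Mx1 promoter through interferon, and was killed 10 days after dosing ended. The Mx1 promoter responds to interferon in many cell types, so deletion is not expected to be limited to HSCs. Values are the authors' group values in RPKM (reads scaled to gene length and library size), 1 per gene and group. No spread between animals could be computed, so no difference has a replicate check and no test was made.

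Btg and Tob proteins share an N-terminal domain that binds the deadenylases Cnot7 and Cnot8 of the CCR4-NOT complex, and they restrain proliferation when overproduced. Zfp36 proteins bind AU-rich elements (AREs) in 3′UTRs through a pair of CCCH zinc fingers and recruit CCR4-NOT, which shortens the poly(A) tail and starts decay of the mRNA. Several of these genes are themselves induced within minutes by growth factors, stress or handling of cells, and their short-lived mRNAs carry AREs. Btg2 is also a target of the tumour suppressor p53.

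The sequences that mark these genes lie upstream of their start sites and in their 3′UTRs. The first set is shown because Btg2 and Zfp36 were the members farthest apart between the groups, and Tob1, the member higher in mutants, is set beside them. All are written 5′ to 3′ on the strand of the gene, from RefSeq promoters on GRCm38.p6. For Btg2 the 250 bases upstream of the start site (chr1:134079156-134079405, minus strand) are given, with capitals at the cAMP response element (CRE) and at the CCAAT boxes. For Zfp36 the capitals mark a CArG box, the binding motif of serum response factor (chr7:28379268-28379295, minus strand), and an Egr motif (chr7:28379315-28379343, minus strand). For Tob1 they mark the TATA box (chr11:94211396-94211423, plus strand).
Btg2 promoter: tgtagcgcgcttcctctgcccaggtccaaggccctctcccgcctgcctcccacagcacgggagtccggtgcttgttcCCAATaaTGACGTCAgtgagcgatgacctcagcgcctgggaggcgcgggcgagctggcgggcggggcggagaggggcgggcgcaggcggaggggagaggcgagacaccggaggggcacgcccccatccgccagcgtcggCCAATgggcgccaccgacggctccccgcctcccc
Zfp36 CArG box: caggccgccCCATAAAAGGagaaagctc
Zfp36 Egr motif: gagctacgccGCGGGGGCGcgtcccggaa
Tob1 TATA box: ggggaggaggcTATAAAacgagaggcgg

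The motifs searched on both strands of the 250 upstream bases were the CRE (TGACGTCA), its first 5 letters alone (TGACG, contained in the full CRE), the Egr motif (GCGGGGGCG), the CArG box, the TATA box (TATAAA), the CCAAT box (CCAAT) and the GC box (GGGCGG). The full CRE of Btg2 lay 166 to 159 bases upstream of the start site, and 1.55% of 32851 RefSeq promoter windows of this length hold it. The start site of Zfp36 in RefSeq is downstream of that in the GENCODE transcript used for its span, so the 2 motifs of Zfp36 lie within the GENCODE gene. From the RefSeq start, the CArG box lay 58 to 49 bases upstream and overlapped a GC box by its first base, and the Egr motif lay 105 to 97 bases upstream. These motifs occur in 1.47% and 2.57% of all windows. No other member held a full CRE, a CArG box or an Egr motif in this window. Btg1 held the 5-letter CRE motif at 2 places and Tob1 at 1, a motif found in 17.8% of windows. A TATA box was found in Btg1, Tob1 and Zfp36l1, against 12.4% of windows. RefSeq promoters were matched for 7 of the 8 members, all but Zfp36l2.

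The second set shows the ARE nonamer TTATTTATT, the preferred site of Zfp36 proteins. It was present in the 3′UTRs of all 3 Zfp36 family members and of none of the 5 Btg/Tob members, and in 7.34% of 13301 genes with reads and an annotated 3′UTR. The sites below are from GENCODE M21 transcripts, with the nonamer in capitals.
Zfp36: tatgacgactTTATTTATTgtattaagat
Zfp36l1: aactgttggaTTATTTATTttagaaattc
Zfp36l2: actatttaacTTATTTATTatcttgtgaa

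The nonamer starts 589 bases after the stop codon in Zfp36, 1404 bases after it in Zfp36l1 and 821 bases after it in Zfp36l2. The shorter ARE pentamer ATTTA, which the nonamer contains, was present in the 3′UTR of every member. Its number was highest in Btg1, with 11 copies in 4166 bases, and in Zfp36l1, with 9 copies in 1835 bases. Btg2 had 5 copies in 2199 bases and Zfp36 had 3 copies in 774 bases. The median gene with reads had 1 copy, in a 3′UTR of 1010 bases at the median, and 66.6% of genes had at least 1.

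**Figure D1:**
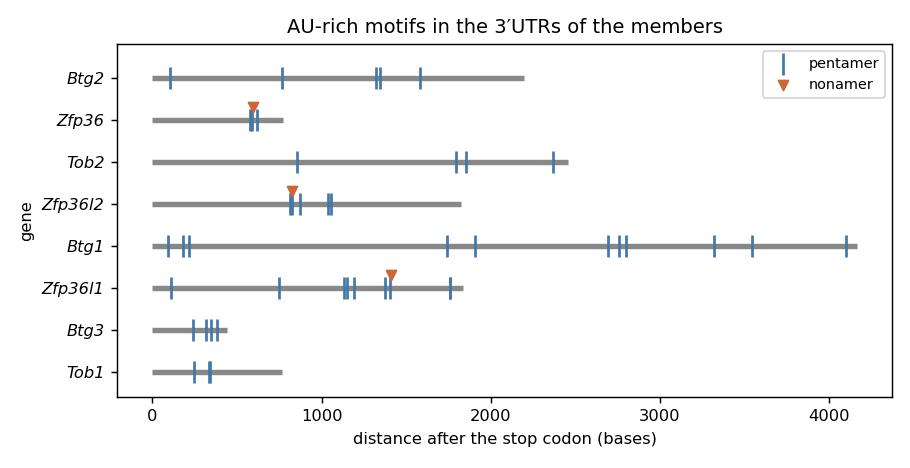
Each grey bar is the 3′UTR of 1 member drawn to scale from the stop codon, with blue ticks at ARE pentamers and orange triangles at the nonamer. Genes are ordered by their log2 mutant/control ratio, Btg2 lowest at the top and Tob1 highest at the bottom, and nonamers are seen in the 3 Zfp36 family members alone.

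The members also share a compact gene structure. Of the 8, 7 have 2 exons in the transcript used, against a median of 9 exons among genes with reads, of which 7.76% have 2 or fewer. Btg3 has 5 exons. Zfp36 spans 3470 bases of chromosome 7 (28376784 to 28380253, minus strand), Btg2 spans 3951 bases of chromosome 1 (134075170 to 134079120, minus strand) and Tob1 spans 4042 bases of chromosome 11 (94211454 to 94215495, plus strand). The median span of genes with reads was 21247 bases. Zfp36l2 lies on chromosome 17 (84183931 to 84187947), Zfp36l1 on chromosome 12 (80107754 to 80113013), Btg1 on chromosome 10 (96617006 to 96622809), Tob2 on chromosome 15 (81848272 to 81858485) and Btg3 on chromosome 16 (78359860 to 78376810), so no 2 members share a chromosome. These positions are those of GENCODE M21 on GRCm38.

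The targeted gene Mettl3 had a control value of 49.8 RPKM and a mutant value of 9.60 RPKM. Defining HSC genes were measured in both groups. Kit was at 67.4 and 39.9 RPKM, Ly6a (Sca1) at 152 and 167 RPKM and Slamf1 (CD150) at 25.9 and 27.1 RPKM. Of 8 markers of cells gated against, 4 had reads, 2 higher and 2 lower in mutants. Among them, Cd48 was at 5.33 and 4.04 RPKM and Itgam at 0.727 and 1.65 RPKM. All 10 HSC markers had reads, and 4 were higher and 6 lower in mutants, 1 of them at least 2-fold lower. If the small constant that every deposited value contains is 1 read per library, the mean library size (harmonic) was 24.1 M reads in controls and 28.7 M in mutants (M, megareads).

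Of the 8 members, 7 were lower in the mutant group value and 1 was higher. Btg2 and Zfp36 were at least 2-fold lower, counted on log2((mutant + 1) / (control + 1)), which shrinks the difference of genes with low values and is meant by every log2 ratio below. Unless another setting is named, every count of genes past 2-fold uses it too. A gene with low values can therefore be past 2-fold in RPKM and not be counted. No member was at least 2-fold higher. Over the 14538 genes with reads in at least 1 group, 3.47% were at least 2-fold lower, 3.67% were 2-fold or more higher and 47.4% lower by any amount. The median log2 ratio of the 8 members was -0.55, and that of all genes with reads was 0.02. In the subset that reached 10 RPKM in either group, which includes 4 of the members, 2.47% were at least 2-fold lower.

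**Figure D2:**
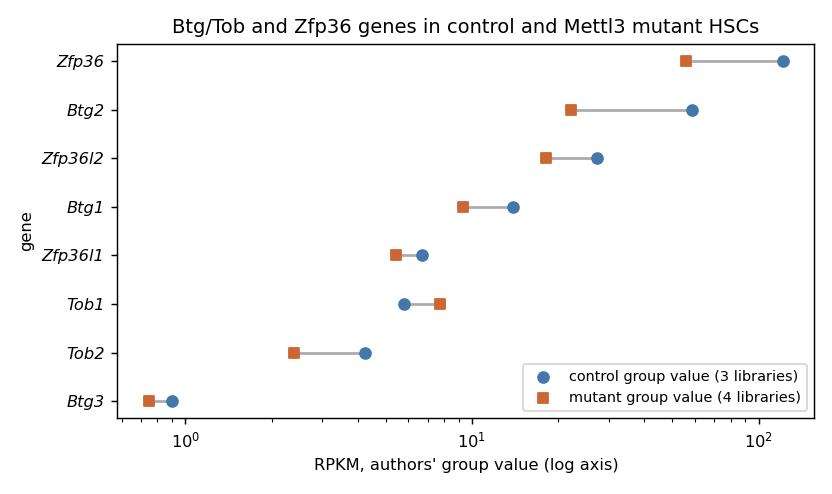
Each row is 1 gene and the horizontal log axis is RPKM, with a blue circle for the control value and an orange square for the mutant value, each a single group value without error. The square lies left of the circle in 7 of 8 rows, Tob1 being the exception, and the widest gaps are those of Btg2 (58.8 and 22.1 RPKM) and Zfp36 (121 and 55.7 RPKM).

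Zfp36, also called tristetraprolin, promotes decay of cytokine and immediate early mRNAs and was the most abundant member in both groups. Its control value was 121 RPKM and its mutant value 55.7 RPKM, so the mutant value was 45.8% of the control value and the log2 ratio was -1.11. Its control level exceeded that of 92.8% of genes with reads, and its log2 ratio was lower than those of all but 2.60% of them. Zfp36l2, a paralogue known to be needed for HSC maintenance in mice, was at 27.4 and 18.1 RPKM, 66.0% of the control value, with a log2 ratio of -0.57. Zfp36l1, which acts with Zfp36l2 in lymphocyte development, was at 6.71 and 5.45 RPKM, 81.3% of the control value, with a log2 ratio of -0.26. The order of the family by level, Zfp36 above Zfp36l2 above Zfp36l1, was the same in both groups. The steps between them were smaller in mutants. Zfp36 was 18.1 times the level of Zfp36l1 in controls and 10.2 times in mutants. The summed level of the family was 156 RPKM in controls and 79.2 RPKM in mutants.

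Btg2, which couples antiproliferative signals to deadenylation, was the member farthest apart. Its control value was 58.8 RPKM and its mutant value 22.1 RPKM, 37.6% of the control value, with a log2 ratio of -1.37. Only 1.43% of genes with reads had a lower log2 ratio. Btg1, its closest paralogue and a gene highly expressed in quiescent lymphocytes, was at 13.9 and 9.30 RPKM, 66.7% of the control value, with a log2 ratio of -0.54. Btg2 was 4.22 times the level of Btg1 in controls and 2.38 times in mutants. Btg3, a more distant member, was the lowest of the 8 at 0.900 and 0.747 RPKM. With the length of its annotated transcript these values correspond to about 89 reads over the control libraries and 117 over the mutant libraries. The exact Poisson 95% intervals, which cover counting error only, were 0.728 to 1.10 RPKM and 0.621 to 0.889 RPKM and overlapped. The read numbers rest on that length and on the constant being 1 read per library, and the difference in Btg3 was not tested.

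Tob1 and Tob2 are larger proteins that bind both the deadenylase and the poly(A)-binding protein, and they were the members that diverged. Tob1 had a control value of 5.79 RPKM and a mutant value of 7.74 RPKM, 1.34 times the control value, with a log2 ratio of 0.36 that exceeded those of 77.9% of genes with reads. Tob2 was at 4.24 and 2.40 RPKM, 56.6% of the control value, with a log2 ratio of -0.62. The ratio of Tob1 to Tob2 was therefore 1.37 in controls and 3.23 in mutants. Counting intervals under the same assumptions did not overlap for either gene (5.43 to 6.17 and 7.41 to 8.09 RPKM for Tob1, 4.00 to 4.47 and 2.26 to 2.54 RPKM for Tob2), but they hold no variation between animals. The summed level of the Btg/Tob members was 83.6 RPKM in controls and 42.3 RPKM in mutants.

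Over both families the sum was 239 RPKM in controls and 121 RPKM in mutants, or 50.8% of the control sum. Most of that gap was in Zfp36 and Btg2. The other 6 members summed to 59.0 and 43.7 RPKM, 74.2% of the control sum. In descending order the control levels were Zfp36, Btg2, Zfp36l2, Btg1, Zfp36l1, Tob1, Tob2 and Btg3. In mutants the order differed only in that Tob1 stood above Zfp36l1. Whether neighbours in this order differ beyond the spread between animals could not be examined. The other genes of these families, Btg4 and Zfp36l3, had no reads in either group.

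**Figure D3:**
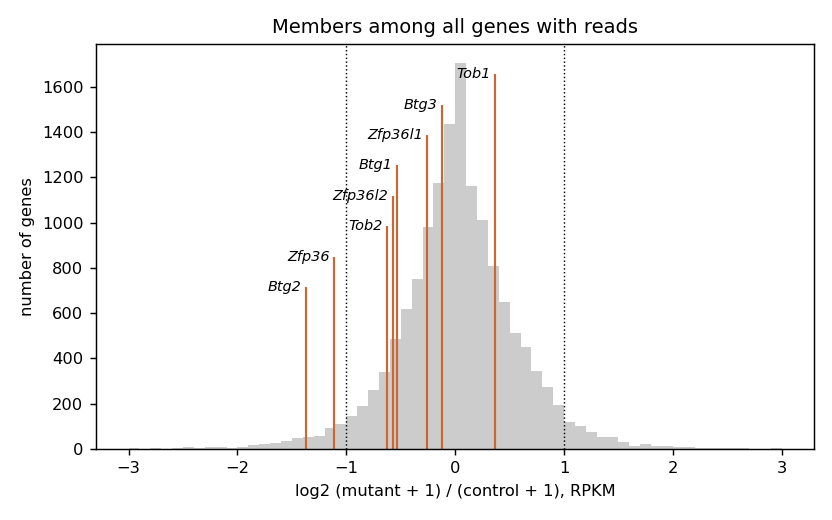
The grey histogram counts all genes with reads by log2 mutant/control ratio (values beyond 3 in either direction are drawn in the end bins), the orange lines mark the 8 members at heights chosen only for legibility, and the dotted lines mark 2-fold. Btg2 (-1.37) and Zfp36 (-1.11) lie beyond the lower dotted line, 5 members lie between it and 0, and Tob1 (0.36) lies above 0.

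Smart-seq2 reads carry no strand, and 5 members share exonic bases with a gene on the opposite strand in GENCODE M21. The overlap is longest for Zfp36l1, with 1672 bases shared with the long noncoding gene Gm26669, and covers 695 bases of Btg3 (with Cxadr), 289 of Tob2, 125 of Zfp36 and 105 of Zfp36l2. The sources used here do not say how reads in these stretches were assigned. Cxadr was at 0.262 and 0.0306 RPKM. Btg2, Btg1 and Tob1 share none.

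The machinery that the adaptors recruit was divided between the directions. Of 11 CCR4-NOT genes with reads, 5 were higher and 6 lower in mutants, none by 2-fold, and their median log2 ratio was -0.01. Cnot7 and Cnot8, the deadenylases bound by Btg and Tob proteins, had control and mutant values of 16.9 and 21.1 RPKM and of 97.1 and 128 RPKM. Cnot6, a deadenylase of the other catalytic type in the complex, was at 17.5 and 11.3 RPKM. Among 8 genes of poly(A) binding and of other deadenylases, 4 were higher and 4 lower, and 1 was 2-fold lower. That gene was Pan2, the catalytic subunit of the PAN2-PAN3 deadenylase, at 8.41 and 3.24 RPKM. Pabpc1, the main cytoplasmic poly(A)-binding protein, was at 172 and 128 RPKM, and Paip1, which binds it, at 16.9 and 23.0 RPKM. The median of this list was -0.14.

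Decapping and 5′ to 3′ decay, the steps that follow deadenylation, gave 9 higher and 7 lower of 16 genes, with a median of 0.04. None was 2-fold apart on the log2 ratio. The members farthest apart were the decapping activators Dcp1a, at 1.29 and 3.13 RPKM, Dcp1b, at 14.4 and 7.66 RPKM, and Edc3, at 24.6 and 15.2 RPKM. Of 17 other proteins that bind AREs or 3′UTRs, 8 were higher and 9 lower, none by 2-fold, with a median of -0.02. For 6 of the 17, below 1 RPKM in both groups, the log2 ratio could not reach 2-fold. Elavl1 (HuR), which stabilises ARE mRNAs, was at 29.2 and 41.7 RPKM. The poly(C)-binding protein gene Pcbp1 was at 107 and 184 RPKM.

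Zfp36 protein is inactivated when the p38 MAP kinase pathway phosphorylates it through MK2 and 14-3-3 proteins bind, and phosphatases reverse this. Of 11 genes of this control, 3 were higher and 8 lower in mutants, with a median of -0.09. On the log2 ratio, 1 was 2-fold apart in each direction. Dusp1, the phosphatase that switches off p38 and itself an immediate early gene, was at 582 and 230 RPKM. Ppp2ca, a catalytic subunit of protein phosphatase 2A, was at 76.3 and 171 RPKM. Mapk11, a p38 isoform, was at 1.43 and 3.59 RPKM. The list called Btg/Tob partners holds 7 genes linked to Btg and Tob proteins outside CCR4-NOT, whose products need not bind them. Of these genes, 2 were higher and 5 lower, with a median of -0.26. None was 2-fold apart on the log2 ratio. Rb1, the retinoblastoma gene, was at 4.14 and 1.95 RPKM, and the signal transducers Smad4 and Smad1 had values of 6.65 and 11.5 RPKM and of 5.71 and 9.12 RPKM.

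mRNAs known to be bound by Zfp36 proteins went both ways. Of 22 listed, 17 had reads, 7 higher and 10 lower in mutants, with 3 past 2-fold upwards, 2 past it downwards and a median of -0.12, or -0.54 over those with at least 10 RPKM in a group. Fos, an AP-1 subunit, was at 617 and 171 RPKM, Dusp1 at the values above, and Il10, an anti-inflammatory cytokine, at 0.0658 and 2.22 RPKM. The 3 genes past 2-fold upwards were all below 1 RPKM in controls. Both 2-fold lower genes, Fos and Dusp1, are also immediate early genes. The median of -0.54 rests on fewer genes and includes the 3 shared with the immediate early list. Without these 3, 7 of the other 14 genes with reads were higher and 7 lower, with a median of -0.02.

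Immediate early genes had a median log2 ratio of -1.06. Of 21 with reads, 17 were lower and 4 higher in mutants, 12 of them at least 2-fold lower. The control and mutant values were 10.6 and 1.35 RPKM for Atf3, a stress-induced factor, 21.9 and 4.35 RPKM for Klf2, a factor of quiescence in lymphocytes, and 11.6 and 2.44 RPKM for Fosb, an AP-1 subunit. Btg2 and Zfp36, which were left off this list, had log2 ratios within its range, with 6 of the 21 genes below Btg2 and 10 of the 21 below Zfp36. For Btg1, Tob2, Zfp36l1 and Zfp36l2, 15 of the 21 had a lower ratio, for Btg3 17 of the 21, and the ratio of Tob1 was above all 21. The part of handling of the cells in these values was not tested. Genes nearest to Btg2 by their values in both groups (distance on log2(RPKM + 1)) were Anxa9, an annexin gene, at 55.3 and 21.9 RPKM, Klf6, an immediate early transcription factor gene, at 59.7 and 19.7 RPKM, and Myo1g, a myosin gene of blood cells, at 51.8 and 23.4 RPKM. With 1 value per group this likeness covers 2 numbers per gene.

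Most targets of p53, to which Btg2 belongs, were higher in mutants. Of 17 other targets with reads, 14 were higher and 3 lower in mutants, with a median of 0.36, and 2 were at least 2-fold higher. Over all 14538 genes with reads, 7649 were higher. Plk3, a polo-like kinase, was at 2.61 and 21.3 RPKM and Tnfrsf10b, a death receptor, at 0.262 and 2.39 RPKM. Plk2, also a polo-like kinase, was at 36.7 and 15.2 RPKM and was the 1 target at least 2-fold lower.

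**Figure D4:**
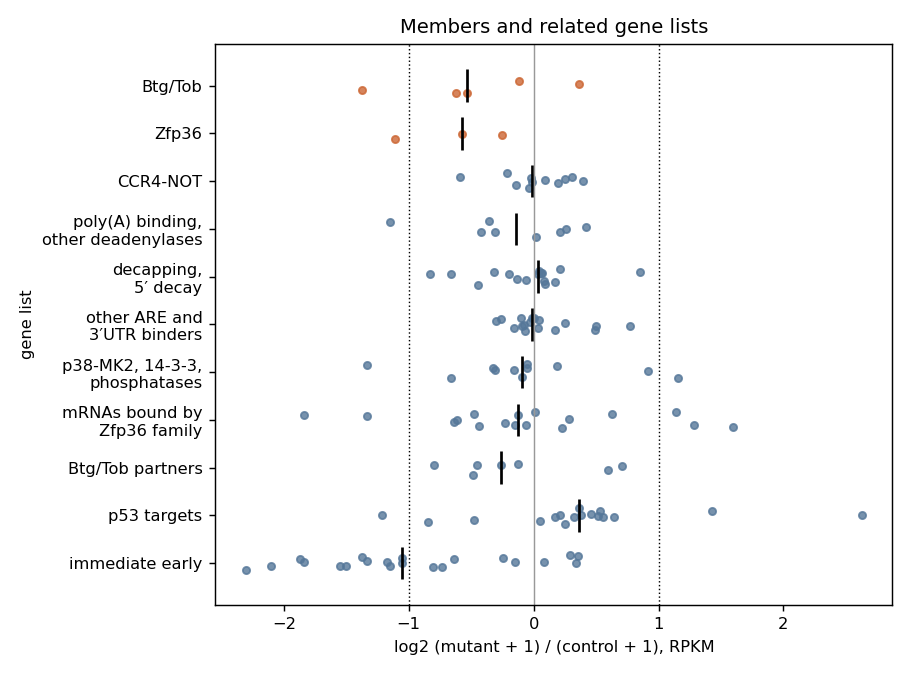
Each point is 1 gene with reads, placed by its log2 mutant/control ratio, with the members in orange, related lists in blue, a black bar at each list's median and dotted lines at 2-fold. Medians of the Btg/Tob (-0.54) and Zfp36 (-0.57) members lie between those of CCR4-NOT (-0.01) and of the immediate early genes (-1.06), and p53 targets lie at 0.36.

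Markers of other blood cells are given because Zfp36 and Btg genes are also abundant in mature leukocytes. Of 6 neutrophil markers in the table, 3 had reads, all 3 were lower in mutants, and their summed level was 14.6 RPKM in controls and 5.82 RPKM in mutants. Camp was at 6.37 and 0.562 RPKM and S100a9 at 1.99 and 0.0710 RPKM. S100a8, at 6.13 and 5.09 RPKM, made up most of the mutant sum, and the granule genes Ltf and Ngp had no reads. Of 7 T and natural killer cell markers 4 had reads, with 3 lower, and the sums of 127 and 64.3 RPKM were almost wholly Nkg7 (124 and 62.3 RPKM), while Cd3e, Cd3g and Cd8a had no reads. Of 9 macrophage and monocyte markers 7 had reads, with 5 higher, and the sum was 435 and 401 RPKM. Lyz2, at 406 and 289 RPKM, made up most of both sums. The level of Cd68 was 26.4 RPKM in controls against 108 RPKM in mutants. C1qb was at 1.87 and 0.904 RPKM, while C1qa, at 0.212 and 1.38 RPKM, and C1qc, at 0.677 and 0.831 RPKM, were higher in mutants. Cd14 was at 0.0277 and 0.790 RPKM, and Csf1r and Emr1 had no reads. Of 6 B and plasma cell markers 4 had reads, with 3 higher, and the sums of 136 and 139 RPKM were almost wholly Cd79b (132 and 133 RPKM). Igj was at 1.59 and 0.0166 RPKM, while Sdc1 was higher in mutants, at 3.14 and 5.80 RPKM, and Cd79a and Ms4a1 had no reads. Erythroid markers summed to 31.8 and 46.1 RPKM with 3 of 5 higher. Megakaryocyte markers summed to 199 and 206 RPKM with 4 of 5 higher. Endothelial and stromal markers summed to 22.4 and 50.7 RPKM with 3 of 4 higher. The endothelial and stromal sums were almost wholly Pecam1 (22.0 and 50.1 RPKM), and Col1a1 and Lepr had no reads. The part of such cells in the values of the members was not tested, and in bulk libraries fewer cells of a type and less RNA per cell cannot be told apart.

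GGACT, a common form of the m6A consensus motif, was counted in the whole transcript of each member, although no m6A was measured here. Zfp36l1 had the highest density, 2.01 per kb, followed by Btg2 with 1.82 per kb, and Tob1 had the lowest, 0.437 per kb. The median over genes with reads was 1.06 per kb. Zfp36 was at 1.08 per kb and Zfp36l2 at 0.850 per kb. These densities rest on the GENCODE transcript used, which for Zfp36 starts upstream of its RefSeq start. The relation of the density to the log2 ratios was not tested.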

How the data were processed

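The deposited table holds RPKM, 1 value per gene for the 3 control and 1 for the 4 mutant libraries, per the file headers. Per the submitters' processing notes the build was mm10 (GRCm38), and Picard and edgeR were used. The sources used here give neither the roles of these tools nor the aligner, the annotation or how libraries were averaged. A gene was read as without reads when its mutant/control ratio was the table's most frequent one, 0.841 (relative tolerance 1e-05, 8500 genes). Log2 ratios used a pseudocount of 1 RPKM, and 2-fold is a rule of size, not a test. The steps were tested on simulated data. Transcripts were GENCODE M21 coding transcripts matched by NCBI Gene identifier, 1 per gene, those with a RefSeq mRNA first and then the longest. Identifiers matched for 87.7% of the table and for all 8 members. Counts of reads behind a member assume that transcript's length, and intervals cover counting error only, since reads carried no molecular identifiers. Among 6765 genes without reads that had a transcript, its length gave the most frequent constant for 27.5%. For the others the lengths behind the RPKM may differ from those used here. The members and gene lists were chosen with earlier results of these data known. Genes named are all members, Mettl3, the 3 genes farthest apart in each related list among those with 1 RPKM in a group, and the 3 nearest to the member farthest apart. Some genes that this rule takes are not reported here. Marker genes named beyond these, the genes of the sort, Cxadr and the genes without reads were chosen after their values were seen. Python 3.11.15, pandas 2.3.3 and scipy 1.17.1 were used.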

Additional observations from a re-analysis of the deposited data

How the results depend on the processing

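All 43 values of single members under the alternatives kept their sign, and the mutant/control ratio they stand for moved by less than 1.5 times. Much of this was fixed in advance. A pseudocount cannot change the sign, and a minimum RPKM leaves a gene's own ratio as it was. The rescalings divided the mutant column by only 1.02 or 0.992, too little to turn the sign of any member. The log2 ratio of Btg3 went from -0.12 to -0.24 with a pseudocount of 0.1 RPKM and to -0.27 with none. Btg2 and Zfp36 were the 2 members at least 2-fold lower at every setting run. The background moved with the pseudocount. With 0.1 RPKM, 19.6% of genes were at least 2-fold apart and 9.27% at least 2-fold lower (1508 higher, 1347 lower genes). With none, these were 25.1% and 11.5% (1980 higher, 1674 lower), because low genes then pass the threshold. With a minimum of 10 RPKM in 1 group, chosen after seeing the data, 222 genes were higher and 163 lower, and 4 members were kept and counted, 4 of them lower. Btg1 passed this minimum through its control value alone, so its direction there is partly set by the minimum. Of 48 medians of the 8 related lists other than the immediate early one, 4 changed sign. They were CCR4-NOT (0.00023 with columns scaled to equal sums, 0.14 with the minimum of 10 RPKM), other 3′UTR binders (0.00059 with a minimum of 1 RPKM) and Btg/Tob partners (0.13 with the minimum of 10 RPKM). The median of mRNAs bound by Zfp36 proteins kept its sign but went from -0.12 to -0.23 with 0.1 RPKM or no pseudocount and to -0.54 with the minimum of 10 RPKM, where fewer genes are kept. No paired analysis was possible because the deposited values are 1 per group and carry no replicate number. Leaving out replicates was not run for the same reason.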

Other observations

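The exon number that most members share was set against the values of all genes, without a test. The classes below include the members that meet their limits. Among genes with at least 10 RPKM in 1 group and an annotated 3′UTR, the 322 with 2 exons or fewer had a median log2 ratio of 0.28, and 9.63% of them were 2-fold or more higher and 2.48% 2-fold or more lower in mutants. The 6072 genes with more exons had a median of 0.02, with 3.05% higher and 2.44% lower. Over all genes with reads, a range that also takes in Zfp36l1, Tob1 and Tob2, the 996 genes with 2 exons or fewer had a median of 0.08, with 6.53% higher and 3.31% lower. In that range, 72 genes had 2 exons or fewer and the ARE nonamer in the 3′UTR, 2 past 2-fold downwards and 7 past it upwards. Zfp36 was 1 of the 2 lower genes, and the other was also below Zfp36l2 (-0.57). These 2 traits were picked because the Zfp36 members share them. Of the 15 such genes with at least 10 RPKM in 1 group, which leave out Zfp36l1, Zfp36 and Zfp36l2 had the lowest log2 ratios. The 3 at least 2-fold higher were B3gnt2, a glycosyltransferase gene, at 13.5 and 30.5 RPKM, Gimap9, a lymphoid GTPase gene, at 39.6 and 98.9 RPKM, and Lcmt2, at 9.12 and 26.0 RPKM. These genes were named after their values were seen.

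The nonamer was set against the values of all genes in the same way. The 976 genes with reads that carry it in the 3′UTR had a median log2 ratio of 0.03 and 2.97% were at least 2-fold lower, against 0.02 and 3.38% of the 12325 genes without it. With at least 10 RPKM in 1 group, these shares were 3.10% of 323 genes with it and 2.40% of 6071 without it, and 5.57% against 3.26% were 2-fold or more higher. The 333 genes with reads and a full CRE had a median of 0.03 and 5.11% were at least 2-fold lower, against 3.39% of genes without it. The 170 genes with a CArG box had a median of -0.03 and 5.29% were at least 2-fold lower, against 3.42% of genes without it. For the Egr motif, also present in Zfp36, the shares were 3.61% and 3.43%, and for the TATA box, present in Btg1, Tob1 and Zfp36l1, they were 5.43% and 3.26%. The remaining motifs searched, all present in Btg2, went the other way. The shares were 3.02% with and 3.62% without the 5-letter CRE motif, and 3.33% and 3.52% for the CCAAT box. For the GC box, also present in Zfp36, they were 2.92% and 4.26%. These shares describe the single pair of group values and were not tested.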
